A study of Mus musculus with 6 samples.

Results

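The Dup-C library was made from limb buds of mouse embryos at E12.5 that carry a duplication at the Sox9/Kcnj locus, and it was set against the library of WT limb buds of the same age. It is 1 of 6 genotypes in the series, each with 1 library, so 1 library of 6 is described here and 1 serves as its control. The library of another genotype of the same age, Dup-L, was set beside both for part of the segment. Contacts were counted by capture Hi-C, in which DNA ends that lie near each other in fixed nuclei are ligated, probes then enrich fragments of the locus, and each sequenced ligation product adds 1 contact between a pair of 10 kb bins. The maps hold 587 bins of chromosome 11, from 109010001 to 114880000 in the mm9 build. The strain, the zygosity of the duplication and the number of embryos in each library are not given by the labels used here, nor is the order or orientation of the copies in Dup-C.

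Chromosomes fold into topologically associating domains, stretches within which DNA contacts itself more than its surroundings. Boundaries, many of them bound by CTCF, separate neighbouring domains, and they are thought to keep the enhancers of one domain from the promoters of the next. A tandem duplication that spans a boundary joins the end of one copy to the start of the next, which places pieces of both neighbouring domains side by side between 2 boundary copies. The study's title names such an arrangement a neo-TAD. Sox9 encodes a transcription factor needed for cartilage and testis and is regulated by enhancers spread over a long gene desert, and Kcnj2 and Kcnj16 encode inward rectifier potassium channels. In the gene table, which is on GRCm38, protein-coding genes follow each other as Abca5, Map2k6, Kcnj16, Kcnj2, Gm11677, Sox9 and Slc39a11. In the published description Dup-C includes Kcnj2 and Kcnj16, and Sox9 lies outside on the telomeric side. No gene position on mm9 was used, so values below belong to stretches of chromatin and to no single gene.

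The duplicated segment ran from 110770001 to 112520000 (1750 kb, 175 bins). The boundary bin, 111380001 to 111390000, was the WT insulation minimum inside it. The insulation score is the mean contact count between the 500 kb on either side of a bin, as log2 over the mean of the map, and low values mark places that few contacts cross. The boundary bin divides the segment into P, 110770001 to 111380000 (610 kb, the duplicated share of the Kcnj-side domain), and Q, 111390001 to 112520000 (1130 kb, the duplicated share of the Sox9-side domain). The unduplicated rest of the centromeric-side domain is 110200001 to 110770000 (570 kb), called the centromeric rest. The unduplicated rest of the telomeric-side domain is 112520001 to 112650000 (130 kb), called the telomeric rest. Its end is a weak WT minimum at 112650001, with a prominence (depth below the lower of the peaks around it) of 0.306 log2. With KR-normalised values (balanced to equal bin sums) and a 500 kb window, WT had no minimum there, and the centromeric one was at 110350001, not 110190001. With 200 kb windows, both kinds of values had a WT minimum within 1 bin of 112650001. Results for the rests and beyond depend on these ends. Beyond the domains the maps hold 1190 kb on the centromeric side and 2230 kb on the telomeric side.

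Dup-C held 4144258 contacts, against 7051882 in WT, and 83.8% of the 172578 bin pairs held a contact in Dup-C, against 96.1% in WT. Same-bin contacts were 21.4% of all contacts in Dup-C and 18.4% in WT. All folds below are ratios of contact counts between bins 2 or more apart, Dup-C over WT, after scaling on pairs with both bins outside the segment and on the same side of it. The scaling factor was 0.402, and it was 0.392 from the centromeric side alone and 0.408 from the telomeric side alone. Values in parentheses after a fold are exact (Clopper-Pearson) 95% binomial intervals, which cover counting error only and not the error of the factor or the spread between embryos. With no replicates, no test across genotypes was possible, and higher and lower describe these libraries. Counts of blocks of about 100 kb by 100 kb (up to 130 kb at the end of a region) are read against all 1711 blocks of the map, of which 14.4% were at or above 1.5-fold and 15.1% at or below 1/1.5-fold.

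The label was checked first, on contacts of each bin with itself, which no fold uses. Their median ratio over the bins outside was 1.98 in the segment, 2.06 in P and 1.93 in Q, and 164 of the 175 bins were above 1.5, against 0 of the 176 bins on the centromeric side and 0 of the 235 on the telomeric side. The segment had been placed on contact sums of these same maps, so the gain checks the label and is no finding. On the centromeric side the ratio of contact sums was 1.01 in the last bin outside, 110760001, and 1.90 and 2.30 in the first bins inside, 110770001 and 110780001. On the telomeric side the last bin inside, 112510001, had 1.52, and the next, 112520001, had 0.811. Steps in contact sums at these edges follow from how the segment was placed. The same-bin ratio rose more gradually on the centromeric side. It was 0.988 in 110760001, then 1.38, 1.87 and 2.02 in 110770001, 110780001 and 110790001. The outer bin 112520001 held 161 same-bin contacts in Dup-C, against 696 in WT, a ratio of 0.439, and whether it lost sequence at the junction was not tested. It was not the lowest bin outside the segment, where same-bin ratios went down to 0.286 on the centromeric side and 0.0722 on the telomeric side.

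**Figure D1:**
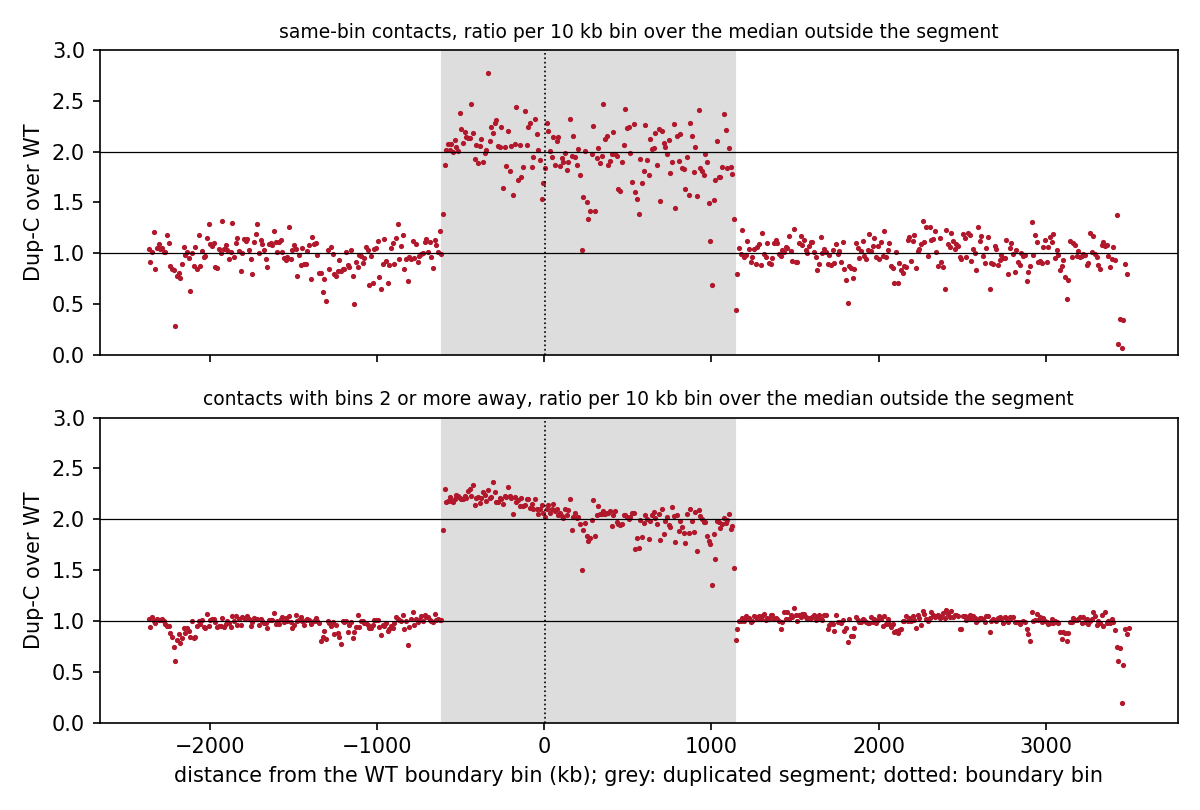
Ratio of Dup-C to WT contacts per 10 kb bin, over the median bin outside the segment, against distance from the WT boundary bin in kb. Each point is 1 bin, the upper panel holds same-bin contacts and the lower one contacts with bins 2 or more away. Most bins in the grey duplicated segment lie near 2 and most of those outside near 1. Low bins outside include the one just past the telomeric end of the segment and lower ones elsewhere.

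The main change was between the parts of the segment on either side of the boundary. P and Q shared 268031 contacts in Dup-C, against 116107 in WT before scaling, a fold of 5.75 (5.71 to 5.79). The median pair of bins held 35 contacts in Dup-C (87.1 after scaling), against 15 in WT. Of the 6893 bin pairs of P with Q, 6893 had a scaled Dup-C count above the WT count, and the authors' deposited difference map was above 0 in 99.99% of them. That map was also above 0 in 99.94% of the pairs within P and 99.68% of those within Q, so the share is not particular to P with Q. All 66 blocks of P with Q were at or above 1.5-fold, from 3.36 to 18.7 with a median of 5.44, where the map as a whole had 14.4%. P with itself had a fold of 2.30 and Q with itself 2.11, close to the ratio of same-bin contacts, and all 21 and all 66 of their blocks passed 1.5-fold, at 2.12 to 2.55 and 1.77 to 2.53. With KR-normalised values, in which the bins of a map have equal sums and the gain of copies is therefore spread out, P with Q had a fold of 2.36, P with itself 0.916 and Q with itself 0.958. On that scale 65 blocks of the whole map were at or above 1.5-fold, and 65 of them lay between P and Q.

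**Figure D2:**
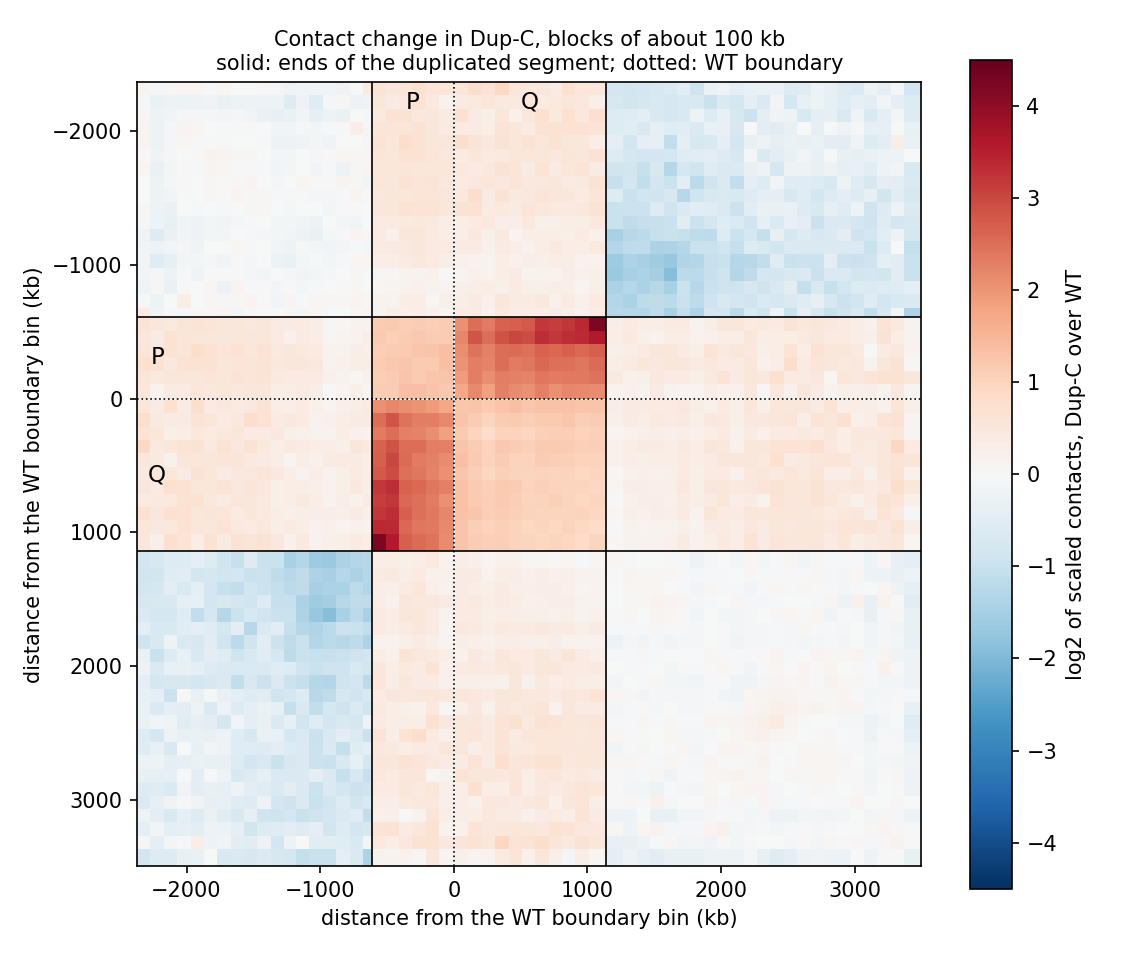
Log2 of scaled contacts, Dup-C over WT, for blocks of about 100 kb, with both axes giving distance from the WT boundary bin in kb. Solid lines are the ends of the duplicated segment and dotted lines the boundary. P with Q is the darkest red and peaks in the corner where the far ends of the segment meet, P and Q with themselves are paler, and pairs across the segment are blue.

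How a stretch divided its contacts shows the same change without any scaling. P spent 38.1% of its contacts on Q in Dup-C, against 14.8% in WT, and 32.2% on itself, against 31.3%. Its share with the centromeric rest, its own domain outside the duplication, was 17.1% in Dup-C and 33.0% in WT. Q spent 20.1% of its contacts on P in Dup-C, against 6.89% in WT, and 5.09% on the telomeric rest, against 9.28%. Of all contacts within and between both domains, those between them made up 21.1% in Dup-C, against 11.9% in WT. These shares count the contacts of both copies together, because reads of the copies cannot be told apart.

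The gain was uneven along P. In tiles from the centromeric end of the segment to the boundary, the fold with Q was 8.04 for 110770001 to 110870000, 7.89 for 110870001 to 110970000, then 5.60, 5.19, 4.77 and 4.16 for the tile that ends at the boundary. The 2 tiles at the centromeric end stood apart from the other 4. Contacts beyond those of 2 copies, the scaled Dup-C count minus 2 times the WT count, averaged 91.8 and 92.1 for each pair of bins in them, against 39.9 to 54.5 in the others. Along Q, the fold with P was 3.93 in the tile next to the boundary and 8.48 in the last one, 112390001 to 112520000, with 4.57 to 6.75 between. The excess in those end tiles of Q was 67.1 and 87.6, and in the tiles between it was 39.0 to 73.2, the highest of these in 111990001 to 112090000. Every one of the 61 bins of P gained with Q, from 3.29-fold next to the boundary (111370001) to 9.46-fold (110780001), and every one of the 113 bins of Q gained with P, from 3.36-fold (111390001) to 10.4-fold (112500001).

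Within P the largest excess lay in 1 bin, 110920001 to 110930000. It had 8879 contacts with Q in Dup-C, against 2495 in WT, a fold of 8.86 and an excess of 151 contacts per bin of Q, where the median bin of P had 58.6. Its neighbours 110900001 and 110910001 had an excess of 136 and 118, and 110810001 and 110850001 had 131 and 130. The bin was also the third richest of P in WT, at 1.46 times the contact sum of the median bin, and with KR-normalised values its fold with Q was 3.59. By fold it was not the first: 110780001 and 110900001 had 9.46 and 9.12 with raw counts and 3.81 and 3.69 with KR-normalised values. Among the 20 pairs of P with Q bins with the largest excess at a junction distance (defined below) of 300 kb or more, 11 had 110920001 as their P bin. The strongest joined it to 112030001, with 152 contacts in Dup-C, against 34 in WT, followed by its pair with 111500001, with 142 contacts in Dup-C and 30 in WT. The bin 112030001 in turn had the third largest excess of the 113 bins of Q, 114 for each bin of P, and the largest WT contact sum of Q. In WT 110920001 was itself an insulation minimum inside P with a 200 kb window, at -0.30, and with raw counts the score there was 0.22 in Dup-C, with no minimum. With KR-normalised values the minimum was present in both, with a prominence (its depth below the lower of the peaks around it) of 0.94 log2 in Dup-C and 0.74 in WT. These bins were picked after their values were seen.

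The gain grew with distance on the reference. P with Q pairs under 100 kb apart had a fold of 2.95. The fold was 4.61 at 400 to 500 kb, 5.81 at 900 to 1000 kb, 7.63 at 1300 to 1400 kb and 17.2 at 1600 to 1700 kb. At 1700 to 1800 kb it was 40.9 (34.5 to 48.7), from 2365 contacts in Dup-C, against 144 in WT. The fold was higher in each window of 100 kb than in the one before it. Pairs within P and within Q had 2.05 to 2.50 in their windows, apart from the single pair of P bins 600 kb apart, at 3.16. Pairs on the same side outside the segment had 0.913 to 1.03 up to 1800 kb. Farther apart, where only the telomeric side has such pairs, they were lower. They had 0.904 at 1800 to 1900 kb, 0.741 at 2100 to 2200 kb and 0.732 at 2300 to 2400 kb, the last from 5 contacts in Dup-C.

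**Figure D3:**
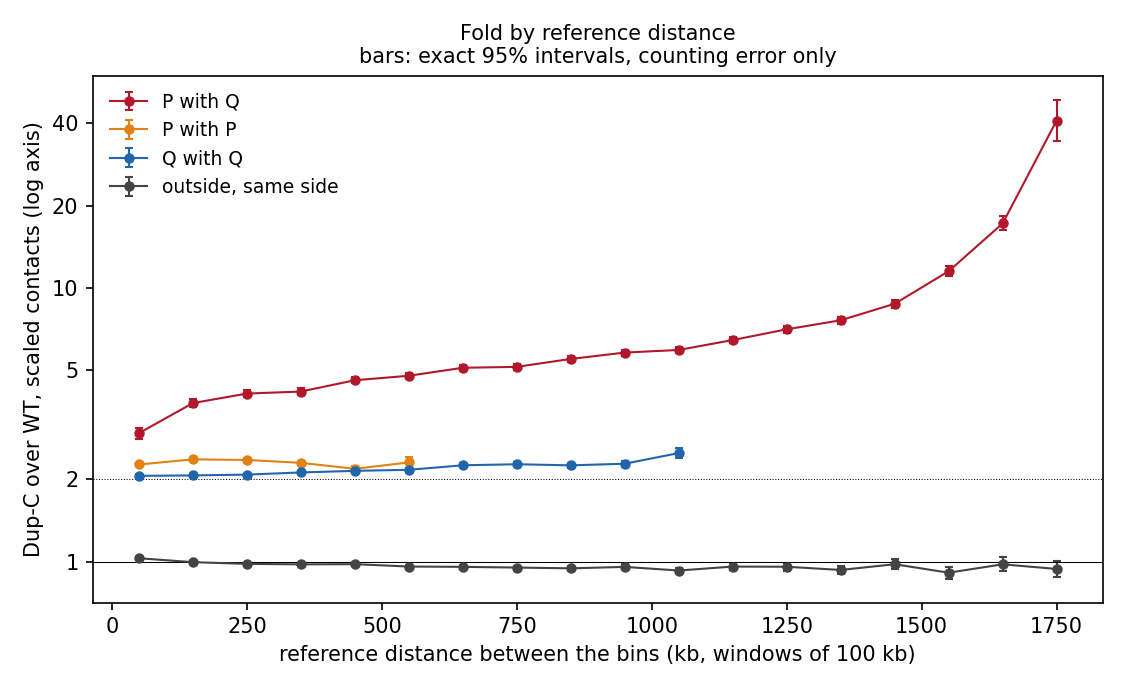
Fold of scaled contacts, Dup-C over WT (log axis), against the distance between bins on the reference, in windows of 100 kb. Points are folds and bars exact 95% intervals of counting error, for P with Q, P with itself, Q with itself and pairs outside the segment. P with Q climbs to 40.9 at the longest distance while the other curves stay near 2 and near 1.

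If the copies lie head to tail, the end of Q in one copy is joined to the start of P in the next. The distance of a P with Q pair through that junction is then the length of the segment minus its reference distance. On this scale the excess lay near the level of WT contacts within a domain. At 0 to 100 kb through the junction it was 275 contacts per pair of bins in Dup-C, against 293 for WT pairs that far apart within 1 domain. It was 159 against 132 at 100 to 200 kb, 109 against 99.8 at 200 to 300 kb and 69.9 against 79.4 at 400 to 500 kb. At 900 to 1000 kb it was 50.6 in Dup-C, against 63.2 within a WT domain and 15.8 across the WT boundary.

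Below 500 kb the mean excess was 98.5 in Dup-C (1225 pairs), against 99.7 within the WT domains, a ratio of 0.988 (0.966 to 1.01). Intervals of this ratio and of the excess carry over the counting interval of the P with Q fold, with the WT means held fixed. They are therefore no measure of how equal the levels are. By window the ratio ran from 1.20 at 100 to 200 kb to 0.881 at 400 to 500 kb. From 100 to 1200 kb it was 63.9 in Dup-C, 0.911 of the 70.2 within the WT domains and 3.47 times the 18.4 across the WT boundary. The calculation takes 2 copies in head-to-tail order, which the labels do not state. Scaled on the centromeric side alone, the first ratio was 1.02, and with the fold of P with itself subtracted in place of 2 it was 0.949.

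The excess did not go on falling at the far end. For pairs close to the WT boundary bin on the reference, which lie farthest apart through the junction, it was 45.3 at 1400 to 1500 kb, 59.7 at 1500 to 1600 kb, 79.8 at 1600 to 1700 kb and 102 (75.4 to 132) at 1700 to 1800 kb, the last from 10 pairs. WT pairs across the boundary at these distances had 12.9 to 13.7. With the fold of P with itself subtracted in place of 2, the same windows gave 38.7, 51.2, 63.2 and 59.9. The block at the boundary, 111270001 to 111380000 with 111390001 to 111490000, had a fold of 3.36 (3.25 to 3.47), the lowest of the 66 blocks, from 8877 contacts in Dup-C and 6583 in WT. Its excess of 81.2 ranked number 14 of 66, so the block with the smallest fold was not among those with the smallest excess.

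**Figure D4:**
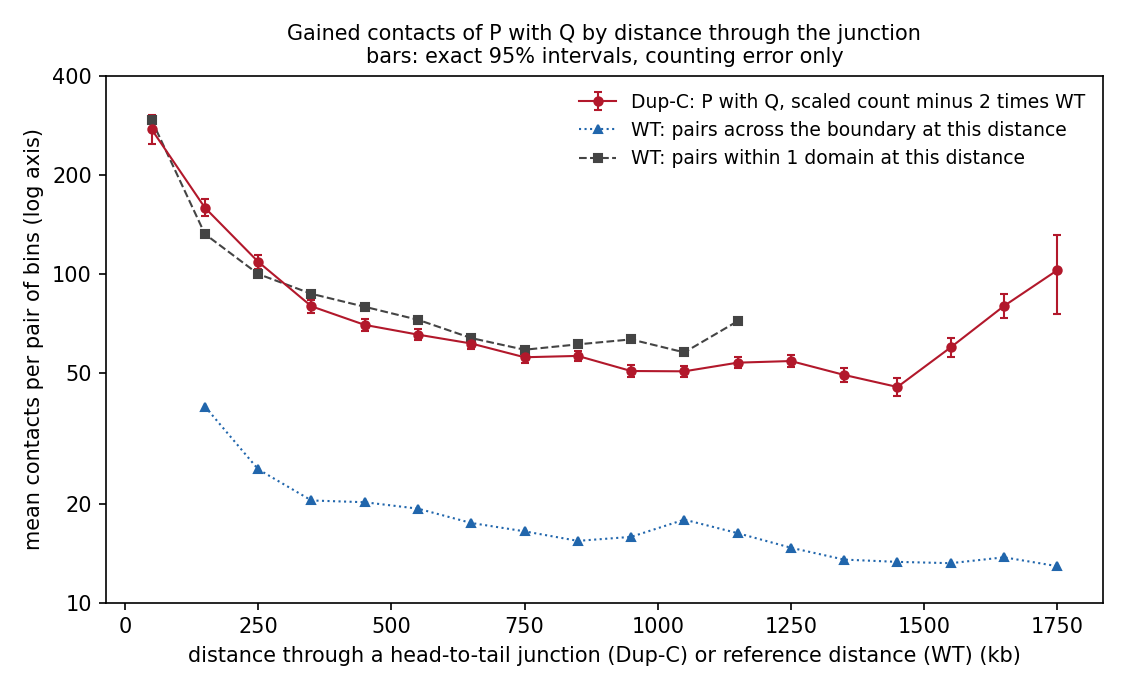
Mean contacts for each pair of bins (log axis) against distance through a head-to-tail junction for the Dup-C excess, and against reference distance for WT, in windows of 100 kb. Red points are the scaled Dup-C count minus 2 times WT, grey squares WT pairs within 1 domain and blue triangles WT pairs across the boundary. Bars carry over the exact 95% counting interval of the fold, with the WT mean held fixed. The excess runs close to the within-domain curve, lies above the across-boundary curve throughout and turns up past 1500 kb.

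In a head-to-tail order the corners of the segment would lie next to each other. The first and last 100 kb shared 10541 contacts in Dup-C, against 1290 in WT. The mean scaled count per pair of bins was 262 in Dup-C, and 237 after 2 times the WT count was subtracted. WT stretches of 100 kb on either side of 1 left-out bin had a median of 173 over the 567 places of the map. They had 62.6 at the boundary and 306 at most, and 527 of the 567 lay below the 237 of Dup-C. Corner pairs lie 1 bin closer through the junction than the pairs of such WT stretches, which favours the Dup-C side at every corner size. Matched by distance, the excess at 0 to 100 kb was 0.937 of the WT level within a domain. For stretches of 500 kb the excess was 77.8 in Dup-C, against a WT median of 54.0 and 20.2 at the WT boundary, and 399 of 487 places were lower. For the 6 corner sizes from 50 to 500 kb the excess was 3.15 to 4.61 times the WT value at the boundary and 1.23 to 1.44 times the WT median. The largest fold of any block was at this corner, 110770001 to 110870000 with 112390001 to 112520000, at 18.7 (17.7 to 19.6). The next 4 blocks, at 11.8, 10.5, 10.3 and 9.94, all had P stretches from 110770001 to 110970000 and Q stretches from 112190001 to 112520000.

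The boundary bin is itself duplicated. It had 5748 contacts with P in Dup-C, against 5673 in WT, a fold of 2.52 (2.43 to 2.62), and 8230 with Q, against 6233, a fold of 3.29 (3.18 to 3.40). With KR-normalised values these were 1.04 and 1.44. With the chromatin outside the segment the bin's folds were lower, at 1.25 with the chromatin beyond the centromeric-side domain, 1.11 with the centromeric rest, 1.14 with the telomeric rest and 1.00 with the chromatin beyond it. With KR-normalised values these were 0.835, 0.793, 0.831 and 0.653.

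An insulation minimum was found at the boundary bin in both libraries, shallower in Dup-C with every window and scale tried. Its prominence with raw counts and a 500 kb window was 0.41 log2 in Dup-C and 2.03 in WT. With a 200 kb window it was 1.18 in Dup-C and 2.10 in WT. With KR-normalised values it was 0.74 in Dup-C and 2.01 in WT at 500 kb, and 1.05 and 2.29 at 200 kb. Relative to the outer end of the centromeric-side domain in the same library, the raw 500 kb score at the boundary was 2.21 in Dup-C and -0.12 in WT. The raw value contains copy number, because the window at the boundary lies inside the duplicated segment and that at the outer end lies outside it. With KR-normalised values it was 0.43 in Dup-C and -0.47 in WT. All contacts of P with Q in the window enter these scores, those through a junction included, so the score does not measure the boundary copies alone. The minima at 110190001 and 113030001, outside the segment, kept prominences of 1.36 and 1.36 in Dup-C, against 1.32 and 1.32 in WT. Raw scores there were -1.98 and -1.50 in Dup-C, against -1.34 and -0.91 in WT. These levels cannot be compared between libraries, because each score is taken over the map's own mean, which in Dup-C includes the added copies. With KR-normalised values they were -0.85 and -1.05 in Dup-C, against -0.93 and -1.10 in WT. Other raw minima outside the segment were at 113540001 in Dup-C, against 112650001 and 113690001 in WT.

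**Figure D5:**
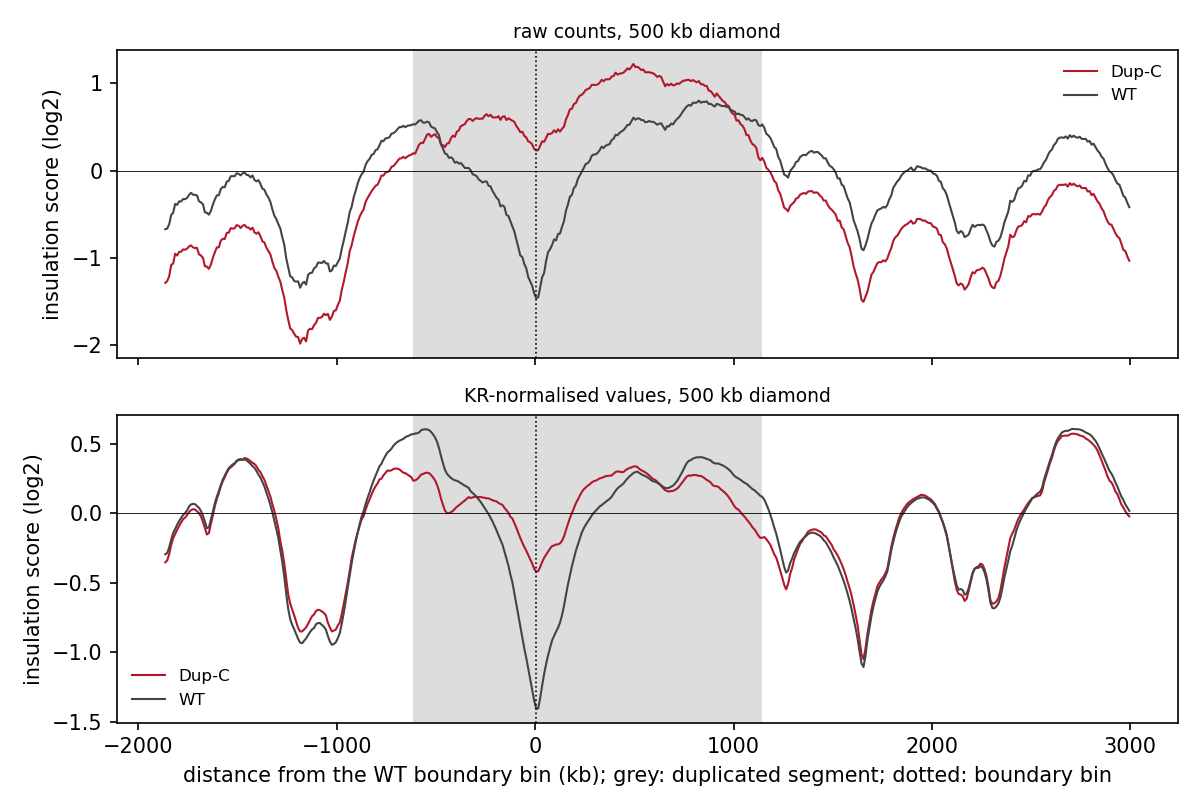
Insulation score (log2) of Dup-C and WT along the map with a 500 kb window, from raw counts above and KR-normalised values below, against distance from the WT boundary bin in kb. Each line is 1 library, grey marks the duplicated segment and the dotted line the boundary bin. The minimum at the boundary is shallower in Dup-C in both panels, and at 110190001 and 113030001 the raw prominence is 1.36 in Dup-C, against 1.32 in WT.

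The duplicated stretches gained little with the unduplicated rests of their own domains. P with the centromeric rest had a fold of 1.16 (120419 contacts in Dup-C, against 258218 in WT) and Q with the telomeric rest 1.08 (67851 in Dup-C, against 156278 in WT). Across the boundary, Q with the centromeric rest had 1.22 and P with the telomeric rest 1.23. With KR-normalised values all 4 were below 1, at 0.778, 0.799, 0.872 and 0.840, and with scaling to the library totals they were 0.794, 0.739, 0.833 and 0.841. Farther out the raw folds were larger, with 1.43 and 1.39 for P and Q with the chromatin beyond the centromeric-side domain, and 1.29 and 1.26 with that beyond the telomeric-side domain. These too were below 1 after KR balancing, at 0.904, 0.938, 0.812 and 0.857. At or above 1.5-fold were 19 of 72 and 32 of 132 of their blocks on the centromeric side and 13 of 132 and 30 of 242 on the telomeric side, where the map as a whole had 14.4%. For the rests themselves, 0 of their blocks with P or Q passed that fold.

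If the copies lie side by side, each flank has 1 copy at its WT distance and the other 1750 kb farther away. Map-wide means of WT pairs 1750 kb farther apart are given beside the added contacts as a description. They are not matched to these regions, which were richer in WT than the map at their own distances. P with the centromeric rest had 74.3, against a map-wide 47.9, and Q with the telomeric rest 106, against 52.8. Q with the centromeric rest had 15.1, against 13.8, and P with the telomeric rest 13.8, against 12.1. Per pair of bins, P gained 12.0 scaled contacts with the centromeric rest, where WT pairs shifted by that length had 6.12. Q gained 8.62 with the telomeric rest, where shifted WT pairs had 6.04. Q gained 3.30 with the centromeric rest and P gained 3.17 with the telomeric rest, where shifted WT pairs had 3.81 and 3.62. All 4 gains depend on the scale: with KR-normalised values and with library totals the folds are below 1. Both of these scales take in the added copies by construction, so folds below 1 on them do not show that no contacts were added.

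Chromatin on opposite sides of the segment had fewer contacts in Dup-C. The centromeric rest and the telomeric rest shared 1351 contacts in Dup-C, against 9262 in WT, a fold of 0.363 (0.343 to 0.385), and 156 of their 741 bin pairs were empty in Dup-C, against 8 in WT. With a scale per distance, taken from same-side pairs outside the segment, that fold was 0.442. The mean per pair was 4.54 after scaling in Dup-C, against 12.499 in WT, and WT pairs 1750 kb farther apart had 2.84. The authors' deposited difference map was above 0 in 4.99% of these pairs. The centromeric rest with the chromatin beyond the telomeric-side domain had a fold of 0.470, with a mean of 2.86 in Dup-C, against 6.08 in WT and 1.97 for shifted WT pairs. The shifted distance exists on the map for 87.4% of these pairs, so that last mean leaves out the farthest ones. Both shifted values are map-wide WT means, not matched to these regions. At the regions' own distances the map-wide WT mean was 6.99 for the rests with each other. It was 3.94 for the centromeric rest with the chromatin beyond the telomeric-side domain. The chromatin beyond the centromeric-side domain had 0.557 with the telomeric rest and 0.653 with that beyond the telomeric-side domain. Of the blocks at or below 1/1.5-fold, 6 of 6 lay between the rests, 117 of 132 between the centromeric rest and the chromatin beyond the telomeric-side domain, and 11 of 12 and 124 of 264 in the other pairs across the segment. No block elsewhere was that low, where the whole map had 15.1%.

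Across the segment the fold varied with distance on the reference. It was 0.412 for the nearest pairs, at 1500 to 2000 kb, and lowest at 2000 to 2500 kb, at 0.387. At 3000 to 3500 kb it was 0.566, at 4000 to 4500 kb 0.675, at 5000 to 5500 kb 0.790 and at 5500 to 6000 kb 0.726. Same-side pairs outside the segment were also below 1 at long distances, with 0.875 at 2000 to 2100 kb and 0.741 at 2100 to 2200 kb. They do not reach past 2400 kb, so the farther windows have no such value beside them. The 5 lowest blocks of the map, at 0.266 to 0.334, all joined 110300001 to 110500000 in the centromeric rest to 112520001 to 113050000. The lowest was 110400001 to 110500000 with 112950001 to 113050000, with 156 contacts in Dup-C, against 1462 in WT. In WT this stretch ends near the insulation minimum at 113030001, which is past the telomeric-side domain and stronger than the minimum at that domain's end.

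The Dup-L segment shares the telomeric end of that in Dup-C but begins at 110960001, so 110770001 to 110960000 (190 kb) is duplicated in Dup-C and not in Dup-L. The Dup-L library was deeper, with 8244295 contacts, against 4144258 in Dup-C. The same-bin ratio of that piece was 2.09 in Dup-C and 1.03 in Dup-L. Its contacts with Q numbered 108209 in Dup-C, against 43212 in Dup-L and 33443 in WT, and after scaling Dup-C had 5.85 times as many as Dup-L (5.79 to 5.92). For the rest of P with Q the folds over WT were 4.81 in Dup-C and 4.71 in Dup-L, and Dup-C over Dup-L was 1.02 (1.02 to 1.03). The shared stretches were not alike in all measures. Q with itself had 2.11 over WT in Dup-C and 1.89 in Dup-L, and Dup-C over Dup-L was 1.12 (1.11 to 1.12). The same-bin ratio of the rest of P was 2.05 in Dup-C and 1.81 in Dup-L. The 190 kb piece is not shared, and in Dup-L its pairs with the telomeric rest lie on opposite sides of the segment. These pairs had 1.25 times the WT contacts in Dup-C, against 0.597 in Dup-L. Both folds over WT share the WT library, and each genotype has 1 library, so the intervals compare these libraries and not the genotypes.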

How the data were processed

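The submitters' processing notes name the aligner Bowtie2 2.2.6 and the build mm9. The authors deposited, for each library, raw contact counts for each pair of 10 kb bins (mapping quality 30, per the file names). They also deposited a signal map of each library after KR (Knight-Ruiz) balancing and a difference map of Dup-C minus WT, whose score values come from scaled raw maps. Pair filters and the removal of duplicates are not given in the sources used, and duplicates left in would make intervals too narrow. The Dup-C positions are offsets, placed on the WT bins: log contact sums correlated at 0.870 with a shift of 0 and at most 0.601 with shifts of 1 to 5 bins.

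Folds were computed from the raw counts with Python 3.11.15, numpy 2.4.6, pandas 2.3.3 and scipy 1.17.1, and drawn with matplotlib 3.10.9. Contacts under 2 bins apart were left out of folds. Blocks were tiled within regions and needed 100 contacts over both libraries, which all 1711 had. Insulation minima needed a prominence of 0.3 log2. Regions named were the segment, the domains, P, Q, the rests, the chromatin beyond, the corners and the 5 highest and 5 lowest blocks. Single bins were added after their values were seen. The regions, lists and rules were chosen with earlier results of these data known. The procedures were tested on simulated maps with known folds. Alternatives were KR values, other scalings, distance weights, separations, block, corner and window sizes, 10 low-coverage bins left out (0 in the segment) and no count minimum. Added after seeing the data were a scale per distance and the fold of P with itself in place of 2 copies. No sequence or gene position was used, since no mm9 genome or annotation was used.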

Additional observations from a re-analysis of the deposited data

How the results depend on the processing

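The fold of P with Q was above 1 under every alternative run. In the order P with Q, P with itself, Q with itself, P and Q with the centromeric rest, P and Q with the telomeric rest, the rests with each other and the corners, KR-normalised values gave 2.36, 0.916, 0.958, 0.778, 0.872, 0.840, 0.799, 0.431 and 9.14. Scaling to the library totals gave 3.93, 1.57, 1.44, 0.794, 0.833, 0.841, 0.739, 0.248 and 13.9. By construction, KR balancing evens out the copies and library totals contain them. For the first 5 of these and Q with the telomeric rest, the centromeric-side scale gave 5.90, 2.36, 2.16, 1.19, 1.25 and 1.11, the telomeric-side scale 5.66, 2.26, 2.07, 1.14, 1.20 and 1.06, and leaving out pairs under 10 bins apart 5.96, 2.38, 2.18, 1.19, 1.24 and 1.11. Equal weight for each distance gave 6.34, 2.33 and 2.196 within the segment, 1.18 for P with the centromeric rest, 1.10 for Q with the telomeric rest and 22.6 for the corners. A scale per distance gave 5.995 for P with Q, 2.28 for P with itself, 1.20 and 1.31 with the centromeric rest, 1.29 and 1.11 with the telomeric rest and 0.442 for the rests. Corners of 50 kb gave 34.1 and of 200 kb 13.4, and adjacent-bin contacts put the copy ratio at 2.01. Blocks at or above 1.5-fold numbered 106 with library totals, 65 with KR-normalised values and 56 of 465 with 200 kb blocks, and blocks at or below 1/1.5-fold 631 with library totals and 69 of 465 with 200 kb blocks, against 247 and 258 of 1711. The junction excess ratio was 1.02 with the centromeric-side scale and 0.949 with the fold of P subtracted. The insulation difference was 0.91 with KR-normalised values and 2.16 with a 200 kb window, against 2.33. In all, 32 values moved by less than their counting interval or limit, 51 moved more and 10 changed side of 1. Where no construction is named, the cause was not tested. No paired analysis was possible because each genotype has 1 library, which also leaves no replicate to leave out. Dup-C was the shallower library, and 38.2% of the pairs of the centromeric rest with the chromatin beyond the telomeric-side domain were empty in it, against 6.30% in WT, so single bin pairs there were not read.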

Other observations

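The unduplicated rests gave a larger share of their contacts to both parts of the segment in Dup-C than in WT. In Dup-C the centromeric rest gave 39.6% of its contacts to P, against 34.4% in WT, and 15.6% to Q, against 12.9%. It gave 0.444% to the telomeric rest in Dup-C, against 1.23% in WT, and 4.80% to the chromatin beyond the telomeric-side domain, against 10.3%. The share it kept for itself was 27.1% in Dup-C and 27.8% in WT. The telomeric rest gave 60.7% of its contacts to Q in Dup-C, against 57.7% in WT, and 4.83% to P, against 4.03%. These are shares of raw counts and need no scaling. They count all copies of P and Q together, so the added copies enter the larger shares, which are not shares for each copy.

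Among the 66 blocks of P with Q, the junction corner had the largest excess over 2 copies, 217 contacts for each pair of bins. The block ranked number 3 was not near the junction: 110870001 to 110970000 with 111990001 to 112090000, with an excess of 116 at 630 kb through a head-to-tail junction. Over the 66 blocks Spearman's rho with junction distance was -0.77 for the fold and -0.36 for the excess, a description over blocks of the same 2 libraries.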
